A study of Mus musculus with 6 samples.

Results

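The genes described here are the protein-coding genes whose symbols begin with Psma, Psmb, Psmc, Psmd, Psme, Psmf or Psmg and a number. They encode the subunits, activators and assembly factors of the proteasome. The symbols were matched in the authors' deposited comparison of 16448 genes, which gave 48 genes, 1 further match being left out by the rule. All 48 were among the 13039 genes with enough counts to be tested, of 43430 genes in the count table. RNA was sequenced from sorted CD4+CD8+ double-positive thymocytes of C57BL/6 mice, the immature T cells of the thymic cortex. The 3 knockout libraries (KO) came from Mettl14fl/fl; CD4-Cre+ mice. The 3 control libraries (WT) are labelled WT and came from littermates, and the labels do not say whether the littermates carried floxed alleles. Mettl14 is a subunit of the methyltransferase that places N6-methyladenosine (m6A) on RNA. The CD4-Cre transgene is active in cells that express Cd4, from about the double-positive stage onward, so these cells are near the start of the deletion. The labels give neither the deleted exons nor age or sex, nor whether the libraries of a group are from different animals. All p-values therefore measure the spread between libraries. With RNA from bulk sorted cells, a change in the share of a cell type and a change in RNA per cell cannot be told apart.

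The proteasome is the protease that degrades ubiquitin-tagged proteins. Its core particle is a barrel of stacked rings of alpha and beta subunits, with the protease sites on the beta subunits encoded by Psmb5, Psmb6 and Psmb7. The regulatory particle caps the barrel: its base unfolds substrates with ATPases (Psmc genes), and its non-ATPase subunits (Psmd genes) recognize ubiquitin and remove it. Interferon and constitutive immune expression replace catalytic subunits with immune ones such as Psmb9, which takes the place of Psmb6, and Psmb10, which takes the place of Psmb7. The PA28 activator (Psme1 and Psme2) opens the barrel and is best known for its part in the production of peptides for antigen presentation. By role, the 48 genes comprised 14 core subunits, 17 regulatory subunits, 4 immune genes (Psmb9, Psmb10, Psme1 and Psme2) and 13 others. The others are activators, an inhibitor, chaperones and a testis alpha subunit, with 2 genes that match by symbol but are not subunits of the proteasome.

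Promoters of 40 of the 48 genes were found in the RefSeq promoter table (build GRCm38.p6, 250 bases before to 50 after the start). The sequences below are shown because they hold a searched motif, given in capitals, or belong to a gene whose KO and WT libraries did not overlap. They are printed 5′ to 3′ on the gene's strand. Apart from the 30-base Psmb9 and Psme1 stretches they lie outside annotated exons.
Psmb6 (catalytic, chr11:70525257-70525356, + strand): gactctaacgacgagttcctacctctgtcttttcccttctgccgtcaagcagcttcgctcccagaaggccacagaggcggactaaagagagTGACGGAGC
Psmb5 (catalytic, chr14:54618024-54618123, - strand): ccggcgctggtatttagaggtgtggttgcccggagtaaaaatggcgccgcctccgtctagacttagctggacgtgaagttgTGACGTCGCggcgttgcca
Psmd9 (chaperone, chr5:123228090-123228189, + strand): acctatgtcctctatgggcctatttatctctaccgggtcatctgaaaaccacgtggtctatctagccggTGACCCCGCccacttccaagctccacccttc
Psma6 (alpha subunit, chr12:55384122-55384221, + strand): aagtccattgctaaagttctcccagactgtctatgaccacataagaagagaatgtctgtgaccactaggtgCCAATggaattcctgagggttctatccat
Psmc5 (base ATPase, chr11:106256081-106256152, + strand): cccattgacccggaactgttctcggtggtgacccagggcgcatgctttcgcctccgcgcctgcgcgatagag
Psmb9 (immune catalytic, chr17:34187331-34187360, - strand): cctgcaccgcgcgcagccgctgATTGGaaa
Psme1 (PA28, chr14:55578494-55578523, + strand): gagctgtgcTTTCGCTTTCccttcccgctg

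The capitals in Psmb6, Psmb5 and Psmd9 match the antioxidant response element TGACNNNGC, the kind of site through which Nfe2l1 and Nfe2l2 drive proteasome genes. This motif was in 6 of the 40 genes (Psmb5, Psmb6, Psmc6, Psmd12, Psmd9 and Psme4). By promoter, it was in 13.95% of the 43 promoters of these 40 genes and in 12.4% of all 32851 promoters in the table. Psma6 and, on the opposite strand, Psmb9 hold the CCAAT box, which was in 14 of the 40 genes. It was in 32.6% of the 43 promoters and in 37.4% of all promoters. Psme1 holds, on the opposite strand and just after the start, the interferon-stimulated response element, GAAA and GAAA set 2 bases apart. That motif was in 5 of the 40 genes (Psmb3, Psmd4, Psme1, Psmd9 and Psmg4), in 11.6% of the 43 promoters and in 3.44% of all promoters. The gamma-activated sequence TTCNNNGAA was in 2 of the 40 genes, Psmd2 and Psmg1, in 4.65% of the 43 promoters and in 8.30% of all promoters. All searches covered both strands, no match overlapped a match of another motif in the printed sequences, and a match describes letters only. Psmc5 held none of the 4 motifs in its 300 bases.

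Library totals ranged from 29500254 to 33377056 counts on genes. Counts were scaled to CPM, a count as a share of the library's gene counts on the per-million scale, with TMM factors, which correct for differences in composition. Mettl14 stood at 52.1, 58.8 and 55.8 CPM in WT and at 42.2, 40.3 and 36.4 CPM in KO. Every KO library was below every WT library, and the log2 difference was -0.49 (SE 0.09, adjusted p = 0.289 in edgeR and 0.00199 in DESeq2). Without the deleted exons' positions, whole-gene counts do not measure the deletion itself. The libraries held the markers of double-positive thymocytes at high levels, with Rag1 at 4589 to 5308 CPM, Cd4 at 1864 to 2230 CPM and Cd8a at 2846 to 3316 CPM. Of 10 such markers 9 had a log2 fold change above 0, with a median of 0.056.

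No proteasome gene passed the test between KO and WT. The threshold was an adjusted p of 0.05 in edgeR's quasi-likelihood test, adjusted over all genes tested, and 0 of the 48 genes passed it, beside 5 of 13039 genes overall (0.0383%). DESeq2 also called 0 of the 48, beside 88 of 13029 genes (0.675%), and limma-voom called 0. The authors' deposited table gave an adjusted p under 0.05 to 0 of the 48, beside 118 of 15491 genes (0.762%), and its lowest value among the 48 was that of Psmc5, 0.773. At an unadjusted edgeR p under 0.05 the count was again 0 of 48, beside 876 of 13039 genes overall (6.72%). The median log2 fold change of the 48 genes was -0.0081, beside -0.0040 over all genes tested. It was -0.016 for the core, -0.017 for the regulatory particle and 0.14 for the 4 immune genes. There were 20 genes above 0 and 28 below. This split moved with the scaling and the libraries used: it was 13 above and 35 below with upper-quartile scaling, 11 and 37 without WT replicate 1, and 30 and 18 without WT replicate 3. The 4 immune genes were above 0 in each of these settings except for Psme2 without WT replicate 1.

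These genes were measured more tightly than most. The median standard error of the log2 fold change was 0.078 for the 48 genes and 0.129 over all genes tested. The coefficient of variation over the 6 libraries had a median of 5.42% for the 48 genes and 11.5% over all genes tested, and it was under 10% in 42 of the 48 (87.5%) against 43.4% of all genes tested. Most of these genes are abundant, and core and regulatory subunits had between 867 and 8231 counts in a library. Their intervals were narrow: for all 31 core and regulatory genes the 95% interval of the log2 fold change lay between -0.29 and 0.35. Genes of like abundance were not compared, so the part of abundance in this was not tested. In linear terms the widest bounds were a change of -18.3% for Psmc1 and of 27.2% for Psmb5.

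**Figure D1:**
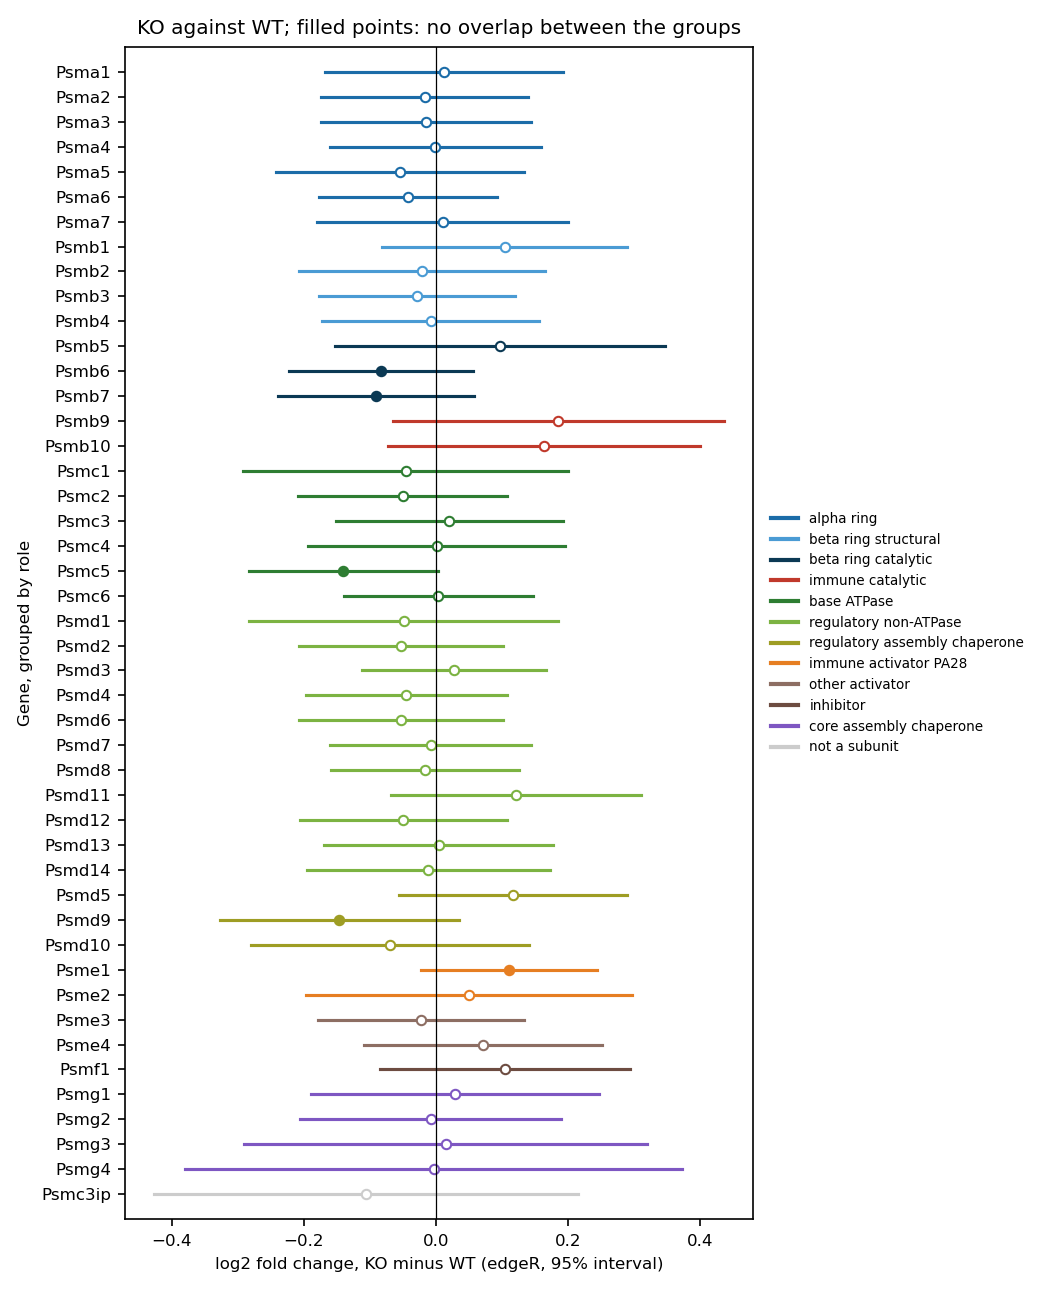
Log2 fold change of KO against WT for 46 of the 48 genes, grouped by role, with edgeR 95% intervals; filled points are genes whose 3 KO libraries all lay above or all below the 3 WT libraries. All 46 intervals include 0, and Psmc5 has the interval that comes closest to excluding it (-0.28 to 0.0032); Psma8 and Psme2b, at under 2 CPM, are left out because their intervals are several times wider.

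KO and WT did not overlap in 6 of the 48 genes. All KO libraries were above all WT libraries in 1 gene, Psme1 (2.08%, beside 6.59% of all genes tested). All KO libraries were below all WT libraries in 5 genes, Psmb6, Psmb7, Psmc5, Psmd9 and Psma8 (10.4%, beside 5.97% of all genes tested). The second count depends on 1 control: without WT replicate 1 it became 18 of 48 (37.5%), beside 12.8% of all genes tested. The first count became 4 without WT replicate 2 (8.33%, beside 8.93%), 6 without WT replicate 3 (12.5%, beside 15.4%) and 5 without KO replicate 3 (10.4%, beside 11.5%). These smaller sets were compared after seeing the data.

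The alpha subunits form the outer rings, which gate entry to the barrel. Per length, that is as CPM divided by the kilobases of the longest coding transcript (RPKM), Psma6 was highest among the 14 core genes at 175 RPKM in WT and Psma3 lowest at 20.7 RPKM. Over all 6 libraries this was an 8.37-fold span, and with exons of all transcripts as the length the span was 9.67-fold between the same genes. Both lengths were larger for Psma3 (2846 and 3894 bases) than for Psma6 (1042 and 1234 bases), so the span depends on the annotated lengths. Without a length, Psma3 was not the lowest: its WT mean of 58.9 CPM was above those of Psma5 (41.5 CPM) and Psmb5 (29.2 CPM). Psma3 has near-identical copies in 3 other genes, among them Gm13835 with 100% identity over 665 bases, and reads that aligned to more than 1 place were not counted, so its level may be understated. Psma6 stood at 178, 182 and 187 CPM in WT and at 177, 174 and 179.8 CPM in KO. Psma3 stood at 56.0, 60.9 and 59.7 CPM in WT and at 58.6, 59.7 and 56.5 CPM in KO. The groups overlapped for both genes, with log2 fold changes of -0.04 (SE 0.06) and -0.01 (SE 0.07). Of the 7 alpha genes, 2 were above 0 and 5 below, all with overlapping groups. Their log2 fold changes ran from -0.05 (Psma5) to 0.01 (Psma1).

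**Figure D2:**
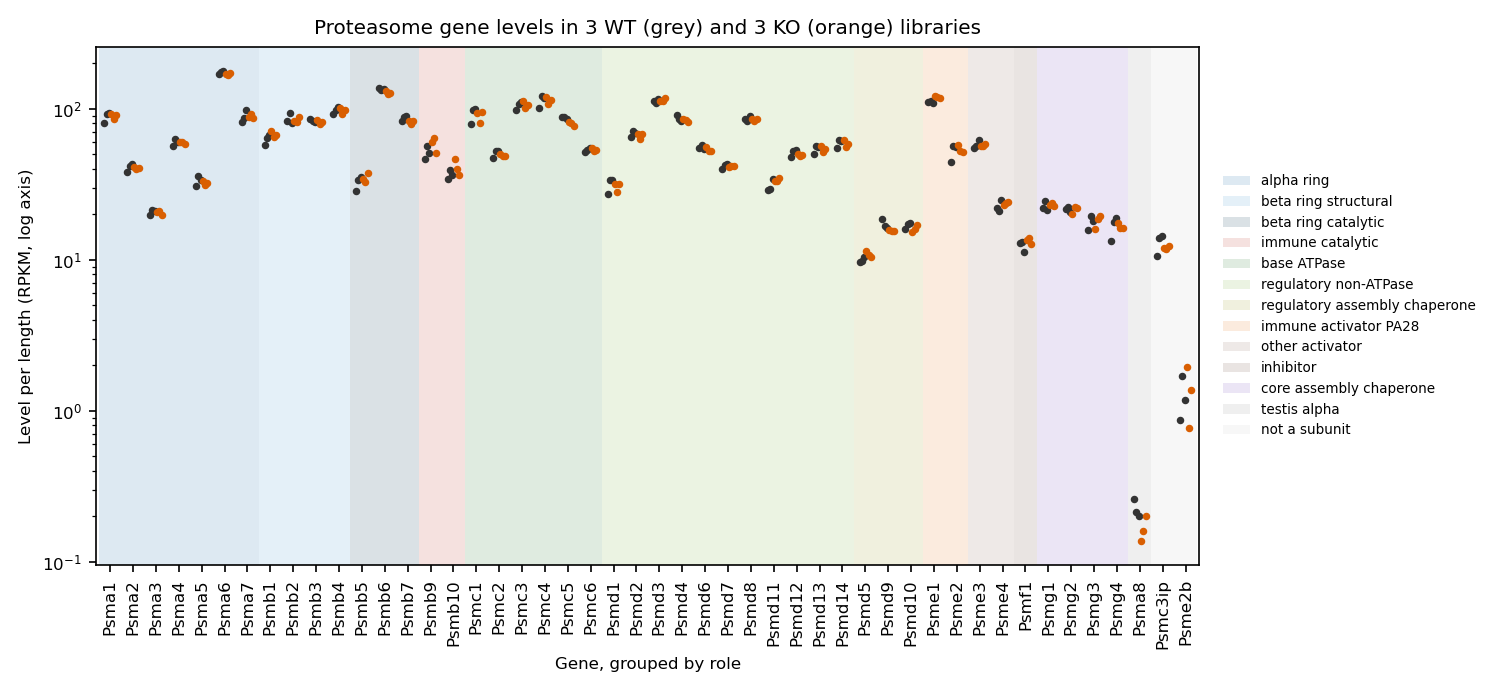
Level per length (RPKM, log axis) of each of the 48 genes in the 3 WT (grey) and 3 KO (orange) libraries, grouped by role. The 6 points of a gene lie close together beside the differences between genes: Psma6 averages 175 RPKM in WT and Psma3 20.7, while Psma8 averages 0.225.

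The 3 catalytic subunits of the constitutive core carry its protease sites, and none passed the test. Psmb6, the caspase-like site, stood at 108.8, 106.0 and 108.6 CPM in WT and at 104.3, 99.4 and 101.6 CPM in KO. Psmb7, the trypsin-like site, stood at 96.6, 102.4 and 103.7 CPM in WT and at 95.7, 92.2 and 96.4 CPM in KO. Psmb5, the chymotrypsin-like site, stood at 25.5, 30.2 and 31.9 CPM in WT and at 30.8, 29.4 and 33.5 CPM in KO. For Psmb6 and Psmb7 every KO library was below every WT library, by margins of 1.74 CPM and 0.242 CPM between the nearest libraries, whereas for Psmb5 the groups overlapped. The log2 fold change was -0.08 for Psmb6 (95% interval -0.22 to 0.06) and -0.09 for Psmb7 (-0.24 to 0.06). It was 0.10 for Psmb5 (-0.15 to 0.35), whose lowest library was WT replicate 1, and the Psmb5 value was 0.0087 without that library. The edgeR adjusted p was 0.806, 0.803 and 0.872 in that order. In WT, Psmb6 had the highest level per length of these genes, 135 RPKM, beside 87.0 RPKM for Psmb7 and 32.5 RPKM for Psmb5. With all exons as the length, Psmb6 was not the highest beta gene: Psmb2 was, at a mean of 60.9 RPKM over the 6 libraries.

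The 4 remaining beta genes have no protease site. Psmb1 stood at 113, 127 and 133 CPM in WT and at 140.3, 128 and 132 CPM in KO, with a log2 fold change of 0.10 (SE 0.08), which was 0.04 without WT replicate 1. Psmb4 stood at 109, 117 and 121 CPM in WT and at 119, 109 and 116 CPM in KO, with a log2 fold change of -0.0076 (SE 0.07). In both genes the groups overlapped and WT replicate 1 was the lowest library. Psmb2 and Psmb3 had log2 fold changes of -0.02 and -0.03. Psmb3 had the smallest coefficient of variation of the 48 genes, 2.46% over the 6 libraries.

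The 4 immune genes all had fold changes above 0, and none passed the test. Psmb9 is the interferon-inducible counterpart of Psmb6. It stood at 63.1, 76.9 and 68.9 CPM in WT and at 81.7, 86.5 and 69.3 CPM in KO. KO replicates 1 and 2 were above every WT library, while KO replicate 3 lay between WT replicates 2 and 3. Psmb10, the counterpart of Psmb7, stood at 44.8, 51.3 and 47.4 CPM in WT and at 60.5, 52.3 and 48.0 CPM in KO, and again KO replicates 1 and 2 were above every WT library and KO replicate 3 was not. The log2 fold change of Psmb9 was 0.19 (95% interval -0.07 to 0.44, edgeR adjusted p = 0.776). That of Psmb10 was 0.16 (-0.07 to 0.40, edgeR adjusted p = 0.781). Both moved with single libraries. Psmb9 ran from 0.12 without WT replicate 1 to 0.28 without KO replicate 3, and Psmb10 from 0.07 without KO replicate 1 to 0.24 without KO replicate 3.

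Psme1, the alpha subunit of PA28, was the 1 gene in which all KO libraries were above all WT libraries. It stood at 122.9, 124.6 and 122.0 CPM in WT and at 135.0, 133.4 and 130.6 CPM in KO. The spread within each group was small, with means of 123.2 ± 1.36 CPM (SD, n = 3) and 133.0 ± 2.22 CPM (SD, n = 3), and the mean difference was 7.99%. The log2 fold change was 0.11 (95% interval -0.02 to 0.24, edgeR adjusted p = 0.766), and it ranged from 0.10 to 0.13 when each library was left out in turn. Psme2, which encodes the other PA28 subunit and lies close to Psme1 on chromosome 14, had no such separation of the groups. Psme2 stood at 42.8, 54.3 and 53.5 CPM in WT and at 55.6, 50.6 and 49.7 CPM in KO, with overlapping groups. The Psme2 log2 fold change was 0.05 (-0.20 to 0.30), and this wider interval includes the Psme1 value. Without WT replicate 1, its lowest library, the Psme2 value was -0.05. Summed over the 4 immune genes the libraries held 274, 307 and 292 CPM in WT and 333, 323 and 298 CPM in KO, so KO replicate 3 was below WT replicate 2.

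The thymic cortical epithelium has a catalytic subunit of its own, Psmb11, which is not among the 48 genes. It was at 0 counts in 5 of the 6 libraries, and WT replicate 2 had 0.091 CPM, which does not exceed the 3 counts taken as the limit of detection.

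The balance between immune and constitutive subunits was compared as a ratio of levels per length within each library. The ratio of Psmb9 to Psmb6 was 0.342, 0.428 and 0.375 in WT, against 0.463, 0.514 and 0.402 in KO. The ratio of Psmb10 to Psmb7 was 0.410, 0.444 and 0.405 in WT, against 0.559, 0.502 and 0.441 in KO. KO replicates 1 and 2 were above every WT library in both ratios and KO replicate 3 was not. The mean ratio of Psmb9 to Psmb6 was 0.382 ± 0.043 in WT (SD, n = 3) and 0.460 ± 0.056 in KO (SD, n = 3), with a two-sided exact permutation p = 0.2. That of Psmb10 to Psmb7 was 0.419 ± 0.021 in WT (SD, n = 3) and 0.501 ± 0.059 in KO (SD, n = 3), with a two-sided exact permutation p = 0.2. The ratio of Psme1 to Psme2 was 2.15 in WT and 2.22 in KO (exact permutation p = 0.8). With 3 libraries against 3 this test cannot go below 0.1, and it was run on these 3 ratios only. The height of a ratio depends on the length used: with exons of all transcripts the WT ratio of Psmb10 to Psmb7 was 0.951 and that of Psmb9 to Psmb6 was 0.331.

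**Figure D3:**
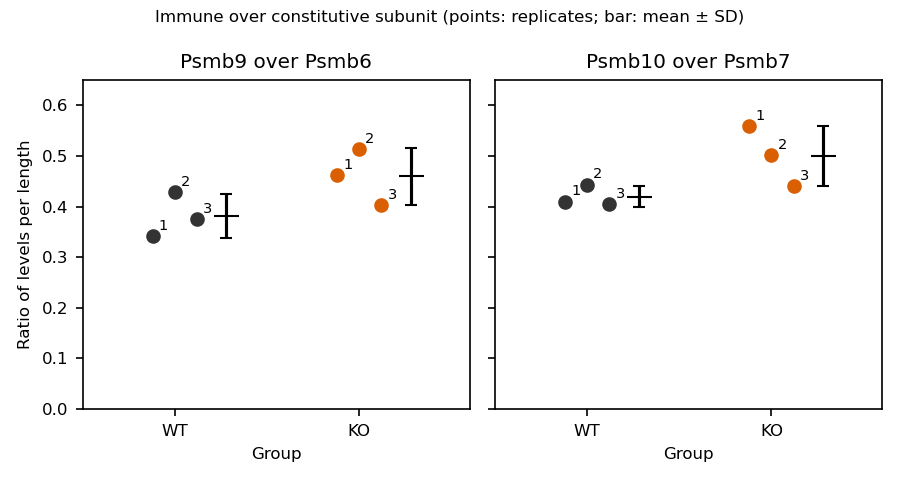
Ratio of the immune to the constitutive subunit in levels per length, for Psmb9 over Psmb6 and Psmb10 over Psmb7, in WT and KO; points are libraries numbered by replicate and bars are mean ± SD of 3 libraries. KO replicates 1 and 2 lie above all WT libraries in both panels, and KO replicate 3, at 0.402 and 0.441, lies below WT replicate 2.

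Other interferon-responsive genes and markers of other cells are given beside the immune subunits. Of 24 interferon-response genes in a list chosen with earlier results of these data known, 24 had a log2 fold change above 0, with a median of 0.56, beside 6375 of all 13039 genes tested. None passed in edgeR, 13 had an unadjusted edgeR p under 0.05 (beside 6.72% of all genes tested), and 7 passed in DESeq2 (beside 0.675%). Summed over this list the libraries held 1714, 1825 and 1721 CPM in WT and 2197, 2372 and 1891 CPM in KO, so every KO library was above every WT library and KO replicate 3 was the lowest of them. Tap1, a peptide transporter gene that neighbours Psmb9 and overlaps its exons on the opposite strand by 212 bases, stood at 214, 222 and 214 CPM in WT and at 259, 274 and 216 CPM in KO. Its edgeR log2 fold change was 0.21 (SE 0.09, adjusted p = 0.747). Without a stated strand setting, reads from the shared bases cannot be assigned to Psmb9 or Tap1. Markers of antigen-presenting cells, which make much immunoproteasome, had a median log2 fold change of 1.40 over the 10 of 13 that were tested, with 9 above 0. Their summed level was 110.2 to 112 CPM in WT and 111, 151 and 130.5 CPM in KO replicates 1 to 3. Cst3, at 50.95 to 60.1 CPM in all libraries, made up the largest share of this level. Cd74 stood at 2.69, 5.15 and 3.52 CPM in WT and at 2.42, 18.7 and 10.5 CPM in KO. The defining marker Itgax was at 0 to 0.17 CPM in all libraries. In the summed level of these markers KO replicate 1, which had the highest summed immune subunits, was within the WT range. Single markers went both ways. Among the 10 tested, H2-Ab1, Cst3 and Cd79a in KO replicate 1 were above every WT library, and Itgam, Cd74 and H2-Aa were below. Of 13 markers of thymic epithelium 3 were tested, 2 of them above 0, with a median log2 fold change of 0.29. They summed to 45.9 to 49.95 CPM in WT and 55.3 to 60.2 CPM in KO, most of it Ly75, and the defining markers Foxn1 and Krt5 were at 0 in all libraries. The part of interferon signalling, of antigen-presenting cells and of thymic epithelium in the immune subunit values was not tested.

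The base of the regulatory particle is a ring of 6 ATPases. Of these 6 genes 3 were above 0 and 3 below. Psmc5 had the lowest p of all 48 genes. It stood at 116.5, 115.8 and 113.1 CPM in WT and at 107.7, 105.2 and 100.5 CPM in KO. Every KO library was below every WT library, by a margin of 5.41 CPM between the nearest libraries, and the means were 115.1 ± 1.76 CPM and 104.5 ± 3.69 CPM (SD, n = 3 each), a difference of -9.25%. The log2 fold change was -0.14 (SE 0.06, 95% interval -0.28 to 0.0032), the unadjusted edgeR p was 0.0541 and the edgeR adjusted p was 0.738. The value ranged from -0.16 to -0.11 when each library was left out in turn. In the authors' deposited table the log2 fold change of Psmc5 is -0.13. The other 5 ATPase genes had overlapping groups, with log2 fold changes from -0.05 to 0.02. Psmc4, the highest of the 6 per length at 114 RPKM in WT, stood at 146, 176 and 169 CPM in WT and at 171, 156 and 165 CPM in KO (log2 fold change 0.0013, SE 0.08). Psmc2, the lowest per length at 50.7 RPKM in WT, stood at 84.7, 93.6 and 93.3 CPM in WT and at 88.9, 86.8 and 86.7 CPM in KO (log2 fold change -0.05, SE 0.07). In both, WT replicate 1 was the lowest library.

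The 11 non-ATPase subunits include the ubiquitin receptor Psmd4, the deubiquitinase Psmd14 and the scaffolds Psmd1 and Psmd2. Of these 11, 3 were above 0 and 8 below, with overlapping groups in all. Psmd11, a lid subunit, had the lowest p of them. It stood at 82.8, 84.3 and 97.5 CPM in WT and at 93.9, 94.4 and 99.5 CPM in KO (log2 fold change 0.12, SE 0.08). WT replicate 3 lay within the KO range, and without it the value was 0.21. Psmd11 shares 97.9% identity over 1501 bases with A730017L22Rik, a transcribed copy with 13.98% as many counts, so reads could be shared or lost between them. Psmd3, the highest per length at 112 RPKM in WT, stood at 241, 235 and 248 CPM in WT and at 242, 240.5 and 255 CPM in KO (log2 fold change 0.03, SE 0.06). Psmd1, scaffold of the base and second lowest per length in WT at 31.7 RPKM, stood at 85.3, 105 and 105 CPM in WT and at 99.1, 87.7 and 98.9 CPM in KO (log2 fold change -0.05, SE 0.10). Its low libraries were WT replicate 1 and KO replicate 2. Psmd4 and Psmd14 had log2 fold changes of -0.04 and -0.01.

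Assembly factors mostly had lower levels per length than the subunits they assemble. Per length, the 4 chaperones of the core (Psmg1 to Psmg4) stood at 16.7 to 22.7 RPKM in WT, and the 3 chaperones of the base (Psmd5, Psmd9 and Psmd10) at 9.999 to 17.2 RPKM, beside 20.7 to 175 RPKM for the core subunits and 31.0 to 114 RPKM for the regulatory ones. Psmd9 stood at 48.5, 43.6 and 42.1 CPM in WT and at 40.9, 40.3 and 40.1 CPM in KO. The KO libraries were nearly equal and all below WT, where replicate 1 was the highest. The log2 fold change was -0.15 (95% interval -0.33 to 0.03, edgeR adjusted p = 0.767), and it was -0.08 without WT replicate 1. Psmd5 lay the other way, at 42.4, 43.4 and 46.1 CPM in WT and at 50.3, 47.2 and 45.6 CPM in KO, with overlap and a log2 fold change of 0.12 (SE 0.07). Psmd10, also known as gankyrin, stood at 23.0, 24.5 and 24.9 CPM in WT and at 21.9, 22.7 and 24.4 CPM in KO (log2 fold change -0.07, SE 0.09). Among the core chaperones Psmg1 stood at 23.1, 25.7 and 22.2 CPM in WT and at 23.9, 24.9 and 23.7 CPM in KO. Psmg4 stood at 7.43, 9.84 and 10.5 CPM in WT and at 9.65, 9.01 and 9.05 CPM in KO. Their groups overlapped, and the log2 fold changes were 0.03 (SE 0.09) and -0.0036 (SE 0.16).

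The other activators and the inhibitor also overlapped between the groups. Psme3, a nuclear activator that acts without ATP, had a log2 fold change of -0.02 (SE 0.07), Psme4, the activator PA200, 0.07 (SE 0.08) and Psmf1, the inhibitor PI31, 0.10 (SE 0.08). Psma8 encodes an alpha subunit of the testis proteasome. It had 15, 12 and 10 counts in WT and 7, 8 and 11 counts in KO, that is 0.439, 0.363 and 0.342 CPM and 0.232, 0.271 and 0.341 CPM. Its groups did not overlap by a margin of 0.000684 CPM only, and in raw counts KO replicate 3 was above WT replicate 3. The 95% interval of its log2 fold change, -1.26 to 0.40, is too wide to place it. The 2 genes that are not subunits, Psmc3ip (a partner of meiotic recombinases) and Psme2b (a copy of Psme2 with 99.4% identity over 794 bases), also had overlapping groups. Psme2b had 2.15% as many counts as Psme2, and the split of reads between them is uncertain.

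Other factors of the pathway were read from a list of 25 tested genes: the assembly factor Pomp, the ubiquitin receptor Adrm1, the deubiquitinases Usp14 and Uchl5, the transcription factors Nfe2l1 and Nfe2l2, and others. None passed in edgeR or DESeq2, none had an unadjusted edgeR p under 0.05, 15 were above 0 and 10 below, and the median log2 fold change was 0.014. Nfe2l1, which activates proteasome genes when the proteasome is inhibited, stood at 79.7, 65.5 and 86.0 CPM in WT and at 87.6, 83.6 and 94.7 CPM in KO (log2 fold change 0.20, 95% interval -0.05 to 0.45). WT replicate 2 was the lowest library and the groups overlapped, and the value was 0.10 without that library. Nfe2l2 stood at 65.9, 58.4 and 68.3 CPM in WT and at 71.2, 67.3 and 69.1 CPM in KO (log2 fold change 0.11, SE 0.08), and its value was 0.05 without WT replicate 2. Zfand2a stood at 27.8, 30.4 and 24.6 CPM in WT and at 24.6, 25.6 and 23.7 CPM in KO (log2 fold change -0.17, SE 0.10), and its value was -0.09 without WT replicate 2.

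The core and regulatory genes shared a pattern across libraries, with WT replicate 1 set apart from the other WT libraries. Of the 31 core and regulatory genes, 20 had their lowest value in WT replicate 1 (64.5%, beside 25.8% of all genes tested). WT replicate 1 and KO replicate 2 were the lowest pair in 5 of 14 core genes (35.7%) and 9 of 17 regulatory genes (52.9%), beside 12.1% of all genes tested. Over all 48 genes they were the lowest pair in 18 (37.5%), and in 0 of the 4 immune genes. This pair of libraries was chosen after seeing the data. The median deviation of the core genes from their own 6-library mean was -0.08, 0.03 and 0.05 log2 in WT and 0.01, -0.05 and -0.01 in KO. That of the regulatory genes was -0.07, 0.07 and 0.05 in WT, against 0.03, -0.05 and 0.0084 in KO. Both particles were thus low in WT replicate 1 and KO replicate 2 and high in WT replicates 2 and 3. In WT replicates 2 and 3 both medians were above those of every KO library. The immune genes had another order, at -0.20, 0.04 and -0.08 in WT, against 0.14, 0.05 and -0.05 in KO. Summed, the core genes held 1296 ± 58.0 CPM in WT, against 1284 ± 24.01 CPM in KO, and the regulatory genes 2223 ± 93.3 CPM and 2196 ± 66.7 CPM (SD, n = 3 each). Both differences between the means were smaller than the SD of either group. WT replicate 1 was also at 1 end of the first principal component of all genes tested, which held 37.9% of the variance, at -38.9 beside -16.5 and -2.36 for the other WT libraries and 8.52 to 32.2 for KO. The part of this library in the proteasome values was not tested beyond the comparisons without it.

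**Figure D4:**
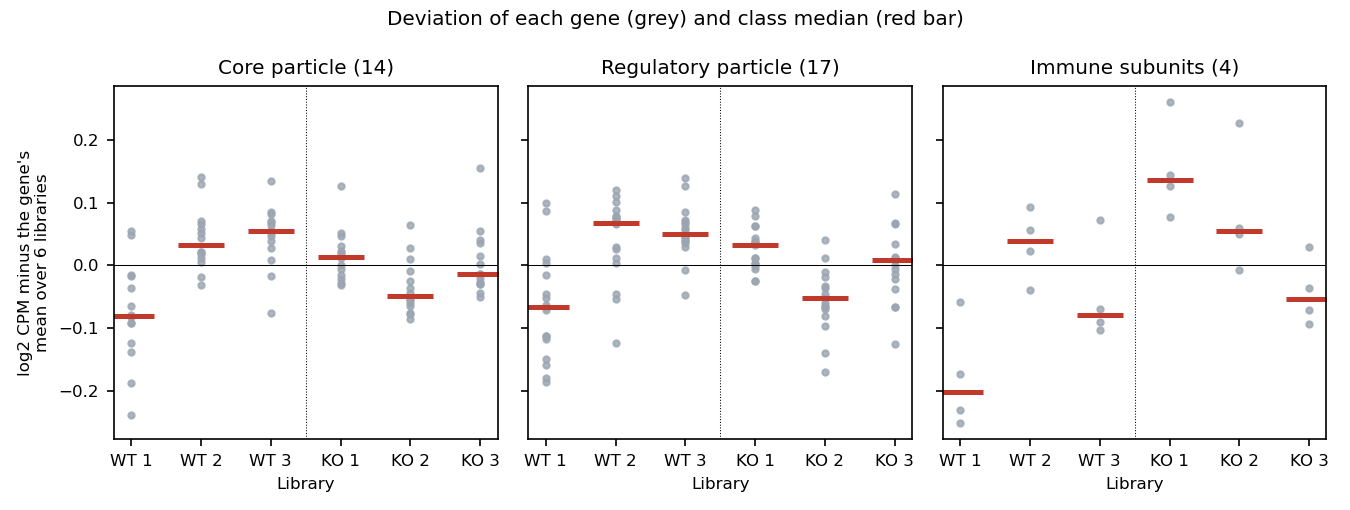
Deviation of each gene's log2 CPM from its mean over the 6 libraries (grey points) with the class median (red bars), for the core particle, the regulatory particle and the immune genes. The core and regulatory medians are lowest in WT replicate 1 (-0.08 and -0.07) and next lowest in KO replicate 2 (-0.05 and -0.05), and the immune median is highest in KO replicate 1 (0.14).

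Without WT replicate 1, 18 genes had all KO libraries below the remaining WT libraries. They were 6 core genes (Psma1, Psma2, Psma5, Psma6, Psmb6 and Psmb7), 7 regulatory genes (Psmc1, Psmc2, Psmc5, Psmd1, Psmd2, Psmd7 and Psmd12) and 5 others (Psmd9, Psmd10, Psmg4, Psma8 and Psmc3ip), and no immune gene. In that comparison the median log2 fold change was -0.05 for the core, -0.06 for the regulatory particle and 0.11 for the immune genes, and edgeR still called 0 of the 48.

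Because m6A is placed mostly in a DRACH sequence context, of which GGACT is a frequent form, these letters were counted in the longest coding transcript of each gene. The median density was 1.17 per kilobase in the 48 genes and 1.05 per kilobase over the 11268 tested genes with such a transcript (86.4%). It was 0.94 per kilobase in the core and 1.51 per kilobase in the regulatory particle. The letters were absent from 8 of the 48 genes (16.7%), 4 of 14 core genes and 0 of 17 regulatory genes among them, beside 7.44% of those tested genes. A short transcript has fewer places for the letters, and these 4 core genes have coding transcripts of 1165 to 1239 bases. Transcripts of like length were not compared. Psme1 held none and Psmc5 held 3. The count describes sequence and not methylation, which was not measured in these libraries.

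Near-identical copies and overlapping genes limit some of the values. At an identity of at least 95% over at least 200 bases, 15 of the 48 genes had a match in another gene's transcripts. For Psmb7, Psmb9, Psmc3ip, Psmd1, Psmd13 and Psmg3 the match was an overlapping gene (Nek6, Tap1, Mlx, Gm21972, Sirt3 and Gm26938). Such a match comes with shared exon bases and need not be a separate copy. For most of the others it was a processed pseudogene. Reads that aligned to more than 1 place were 22.6% to 23.9% of the reads per library, and they were not counted.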

How the data were processed

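RNA from sorted double-positive thymocytes was sequenced in 3 KO and 3 WT libraries made with an Illumina TruSeq kit, per the labels. The submitters' processing notes name the build mm10 and the tools Trimmomatic 0.33, STAR 2.5.2, HTSeq and DESeq2. Not given in the sources used here were the strand setting and the version of the annotation. The authors deposited raw counts per gene and library. The authors also deposited a comparison table with counts divided by size factors (a normalized signal), log2 fold changes, a test score (Wald statistic) and p-values; its columns of other kinds (gene names and lengths) were deposited beside them. Its file is named as paired, and the sources used here do not say what was paired.

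The 48 members and all gene lists were chosen with earlier results of these data known. Reads without a feature (12.3% to 15.2%) and ambiguous reads (0.653% to 0.701%) were left out of library sizes. Genes that passed filterByExpr were scaled by TMM and tested in edgeR 4.0.16 (R 4.3.3) by quasi-likelihood, KO against WT, with Benjamini-Hochberg adjustment over 13039 genes at 0.05. DESeq2 1.42.0 and limma-voom 3.58.1 were alternatives, as were other scalings, no filter, a block and leaving out each library. The procedure was tested on simulated data. Levels per length used the longest coding transcript of GENCODE. Near copies were found with BLAST 2.17.0. Ratios were compared by exact permutation of libraries.

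Per-library values are given for Mettl14, the catalytic subunits and their immune counterparts, PA28, the member with the lowest p and those with the highest and lowest level per length in each class of at least 3, members without overlap between the groups, and up to 4 other proteasome factors by p. Further genes were named after their values were seen, and some results are not reported here. No library was counted as a repeat of another, since counts of any 2 libraries within a group gave a chi-square of 16.1 to 52.0 per degree of freedom.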

Additional observations from a re-analysis of the deposited data

How the results depend on the processing

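None of the 48 proteasome genes passed under any alternative run (2 other scalings, DESeq2, limma-voom, no filter, each library left out, 2 blocks), and class medians shifted by less than the spread between libraries. The number of genes called over all genes was 5, but 88 in DESeq2, 30 without the filter and 4 to 23 when 1 library was left out (8 without WT replicate 1, 23 without WT replicate 3, 14 without KO replicate 2). Proteasome genes with all KO libraries below WT were 5 to 18 when 1 library was left out, beside 8.43% to 16.1% of all genes tested, and with all above 1 to 6, beside 8.93% to 15.4%; 18 of 48 (37.5%, without WT replicate 1) stood beside 12.8%. Of 364 values of 28 named genes under the alternatives, 340 kept direction and call, 1 became a call (Mettl14, -0.48 in DESeq2) and 23 changed sign, all in genes within 0.05 of 0 on the log2 scale. Those were Psmc4 with upper-quartile scaling (-0.021), Psmb4 without the filter (0.0048), and Psmg4 in limma-voom (0.019), without the filter (0.0089), with the replicate block (0.0094) and with a block of replicates 1 and 2 against 3 (0.0018). Leaving out 1 library also turned Psma3 (-0.050 to 0.011), Psmb4 (-0.049 to 0.036), Psmc4 (-0.073 to 0.054), Psmd1 (-0.14 to 0.015), Psme2 (-0.054 to 0.11), Psmg1 (-0.0083 to 0.093) and Psmg4 (-0.14 to 0.10). With all exons as the length, the WT ratio of Psmb9 to Psmb6 was 0.331 and of Psmb10 to Psmb7 0.951, an alternative chosen after seeing the data, as were the counts of genes without overlap. The replicate block called 5 genes and 0 of the 48. In their deviations from the group mean, same-numbered libraries correlated at -0.149, 0.0796 and 0.192. Not every library correlated best with its own number, and WT replicate 1 correlated best with KO replicate 2 (0.181). With 3 libraries in each group, such correlations cannot decide whether the numbers pair the libraries. The cause of these changes was not tested.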
